A study of Mus musculus with 8 samples.

Results

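The genes described here are the cytosolic ribosomal protein genes, chosen by symbol alone: every row of the table named Rpl or Rps with a number, with the P-stalk genes Rplp0, Rplp1 and Rplp2 and the numbered paralogs. The rule found 84 of 25124 rows, 52 of the large and 32 of the small ribosomal subunit, and it uses no expression value. The family itself was chosen with earlier results of these data known. They were measured by RNA-seq in cells labelled airway epithelial cells, isolated by flow sorting from lung tissue of C57BL/6 mice. There were 4 groups of 2 libraries: mice with functional STAT3 (STAT3-WT, here WT) or with a conditional knockout of it (STAT3-cKO, here cKO), and in each genotype treatment with HDM, the house dust mite allergen, or with PBS, the saline control. STAT3 is a transcription factor that IL-6 and related cytokines switch on. The promoter that drives the deletion, the cell type in which it was made, the ages of the mice and the animal behind each library are not stated in the labels. P-values therefore rest on library-to-library spread, and this may be technical only.

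Ribosomal proteins assemble with ribosomal RNA into the 2 subunits that translate messenger RNA. The small subunit reads the message, and the large subunit joins amino acids and passes the growing chain through its exit tunnel. Most of the genes carry a tract of pyrimidines at the start of their messenger RNA, the TOP motif, through which the kinase mTORC1 controls how strongly they are translated. They also have many processed pseudogenes, copies of the messenger RNA pasted back into the genome, which makes short reads from them hard to assign.

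The libraries held 232556 to 593200 recovered reads, so they are shallow. Values below are the deposited normalized counts, and a log2 difference is on the log2(value + 1) scale, which understates differences of low genes. The targeted gene, Stat3, had 133.7 and 157.3 normalized counts in WT under HDM, 76.9 and 92.2 in cKO under HDM, and under PBS 75.8 and 40.9 in WT against 56.9 and 96.5 in cKO. The cKO libraries lay below WT under HDM, while under PBS the genotypes overlapped, so that the libraries labelled cKO PBS are not set apart by Stat3. Counts over the whole gene include any exons that a conditional deletion leaves. All 5 general epithelial markers followed (Epcam, Cdh1, Krt8, Krt18 and Krt19) had reads in every library. Both WT HDM libraries stood apart in the marker genes of several cell types. There the summed alveolar type 2 markers took 2.11% and 3.0% of reads (1.01% to 1.39% elsewhere) and the alveolar type 1 markers 0.0878% and 0.0960% (0.0503% to 0.0644% elsewhere). The ciliated markers took 0.874% and 1.02% (1.45% to 1.81% elsewhere), and the general epithelial markers 0.291% and 0.308% (0.368% to 0.418% elsewhere). Club cell markers were highest in the cKO PBS libraries, at 3.54% and 2.48%, against 1.20% to 2.09% elsewhere, with WT HDM at 1.20% and 1.47%. Markers of non-epithelial cells were all highest in WT HDM. The 7 endothelial markers took 0.222% and 0.229% there (0.0473% to 0.0774% elsewhere) and the 7 fibroblast and smooth muscle markers 0.301% and 0.306% (0.00903% to 0.0288%). The 7 macrophage and dendritic cell markers took 0.299% and 0.500% (0.0979% to 0.203%) and the 5 erythroid ones 0.0592% and 0.104% (0.000881% to 0.00973%). The 8 lymphocyte markers in the table took 0.00742% and 0.0145% in WT HDM and 0.0% to 0.00268% elsewhere, with Cd3d at 0 in every library. The part of these cells in the results below was not tested.

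Of the 84 genes, 77 reached the minimum mean of 10 normalized counts and were tested, 48 of the large and 29 of the small subunit. The other 7 were of different kinds. Rpl10l, Rpl39l and Rpl3l, paralogs of Rpl10, Rpl39 and Rpl3, had 0 reads in all 8 libraries, which allows up to 3 reads a library, or 1.96 to 4.88 normalized counts. Rpl32l and Rps4l, annotated as pseudogenes in GENCODE, had means of 2.03 and 6.03. Rps13 and Rps29, core proteins of the small subunit, had means of 7.46 and 6.39, and Rpl35 (10.3) and Rpl22l1 (11.6) lay just above the minimum.

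Together the 84 genes took about 1% of the reads in every group. The share was 0.892% (95% exact Clopper-Pearson interval 0.868 to 0.916) and 1.16% (1.12 to 1.20) in the WT HDM libraries. In cKO HDM it was 0.922% and 0.987%, and in WT PBS 1.04% and 0.988%. The highest pair was that of cKO PBS, with 1.27% (1.23 to 1.32) and 1.07%. These intervals cover counting error only. Both cKO PBS libraries lay above both WT PBS libraries and both cKO HDM libraries, cKO HDM and WT PBS met at 0.987% and 0.988%, and WT HDM overlapped every other group. With ribosomal proteins outside the symbol pattern added, the lower cKO PBS library (1.121%) was barely above the higher WT PBS library (1.119%). The club cell markers were also highest in both cKO PBS libraries, and their part in the share was not tested. Group means were 1.03% ± 0.189 (SD, n = 2) for WT HDM and 1.01% ± 0.0337 for WT PBS, and 0.954% ± 0.0463 for cKO HDM and 1.17% ± 0.148 for cKO PBS. With 2 libraries against 2, an exact permutation test cannot go below a two-sided p of 0.333, so no test of the share was made.

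The order of the shares was close to the reverse order of depth. The deepest library (WT HDM 1, 593200 reads) had the lowest share and the shallowest (cKO PBS 1, 232556 reads) the highest, and the 3 shallowest libraries held the 3 highest shares. The 2 libraries of WT HDM differed more from each other than any 2 group means did. Within cKO PBS 1 the club cell markers were also at their highest, at 3.54%, and within WT HDM 2 the alveolar type 2 markers, at 3.0%. The part of depth and of cell makeup in the share was not tested. In bulk RNA, fewer cells of a type and less RNA per cell cannot be told apart. For large and small subunit genes alike, cKO PBS had the highest mean share and cKO HDM the lowest, with 0.798% ± 0.103 and 0.373% ± 0.0448 (SD, n = 2) in cKO PBS and 0.623% ± 0.0391 and 0.332% ± 0.00717 in cKO HDM.

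**Figure D1:**
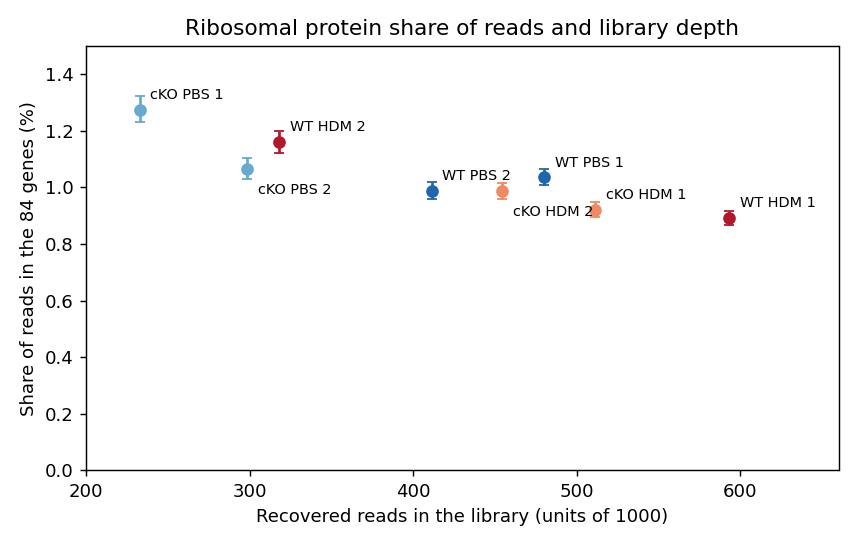
Share of reads in the 84 ribosomal protein genes (%, vertical axis, from 0) against recovered reads per library (horizontal axis), with exact 95% intervals for counting error as bars and groups as colours. The share is 1.27% in the shallowest library and 0.892% in the deepest, and the WT HDM libraries sit far apart.

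The same 2 libraries stood out gene by gene. After the deposited normalization, 53 of the 77 tested genes had their highest value in either WT HDM 2 (26 genes) or cKO PBS 1 (27 genes), or 68.8%. Among all 7512 genes tested, 36.8% had their highest value in 1 of those 2 libraries. Their lowest value fell there for 14.3% of the ribosomal protein genes and for 40.1% of all genes. The median deviation of the 77 genes from their own mean was 0.49 (log2) in WT HDM 2 and 0.33 in cKO PBS 1, and between -0.27 and 0.03 in the other 6. Since 1 such library sits in WT HDM and 1 in cKO PBS, and their partners do not share the shift, it enters the 4 comparisons below through single libraries.

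**Figure D2:**
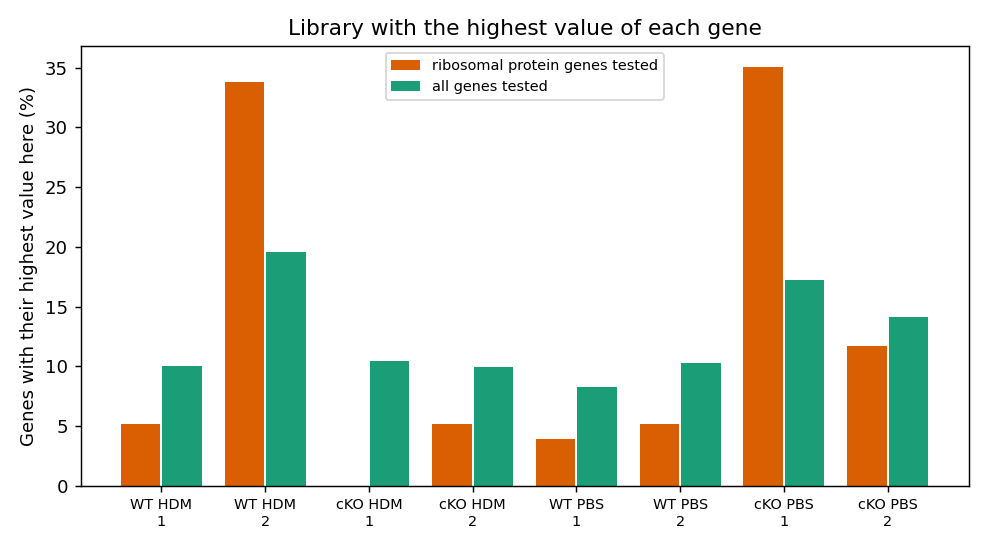
Percent of genes (vertical axis, from 0) whose highest normalized count fell in each of the 8 libraries, for the 77 tested ribosomal protein genes and for all 7512 genes tested. WT HDM 2 and cKO PBS 1 hold the highest value of 33.8% and 35.1% of the ribosomal protein genes.

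No ribosomal protein gene passed an adjusted p of 0.05 (limma with Benjamini-Hochberg adjustment over 7512 genes) in any of 7 comparisons, and none did with edgeR or DESeq2 on the recovered reads. Over all genes tested, 0.519% passed for HDM against PBS in WT, 0.0532% in cKO, 0.572% for cKO against WT under HDM and 0.0% under PBS. The interaction of genotype and treatment called 0.0266% of all genes, HDM against PBS averaged over genotypes 0.399% and cKO against WT averaged over treatments 0.12%. The smallest adjusted p of a ribosomal protein gene was 0.409 with limma, 0.379 with edgeR and 0.236 with DESeq2, each for Rpl35a between the genotypes averaged over treatments. A missed threshold does not show that levels were equal. The median half-width of a gene's 95% interval in the 4 comparisons of 2 groups was 1.12 on the log2 scale. Whole intervals lay within 1 log2 unit of 0 for 13 of 77 genes in HDM against PBS in WT, 7 in cKO, 12 for cKO against WT under HDM and 9 under PBS. In that order these were 16.9%, 9.09%, 15.6% and 11.7% of the family, beside 6.98%, 7.79%, 6.52% and 8.71% of all genes tested.

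HDM against PBS in WT asked how allergen moved these genes where STAT3 was present. The median log2 difference of the 77 genes was 0.08, beside -0.03 over all genes, with 44 positive and 33 negative. This direction rests on 1 library: without WT HDM replicate 2 the median was -0.08 (33 positive and 44 negative), and without replicate 1 it was 0.31 (59 and 18). At an unadjusted p under 0.05 stood 1 of 77 genes (8.93% of all genes), with 1 also by edgeR and 1 by DESeq2. That gene was Rps24, a small subunit protein whose mutation causes Diamond-Blackfan anaemia in people. Rps24 had 82.8 and 91.5 normalized counts under HDM and 49.0 and 41.8 under PBS in WT. Both HDM libraries lay above both PBS libraries, and the log2 difference was 0.93 ± 0.39 (SE, adjusted p = 0.502, limma). In cKO the libraries overlapped, with 74.7 and 64.8 under HDM and 50.4 and 94.0 under PBS. The other positive extremes were Rpl17 (0.97) and Rps16 (0.89), and the negative ones Rps27l (-1.43), Rpl27 (-1.05) and Rps3a1 (-0.81), all above an adjusted p of 0.05. With no overlap between groups, 16 genes were higher under HDM (background 21.2%) and 6 lower (background 20.8%).

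In cKO, HDM against PBS gave a median of -0.16 beside 0.10 over all genes, with 28 positive and 49 negative. Rpl22, Rpl5 and Rpl18 had an unadjusted p under 0.05, 3 of 77 genes beside 7.77% of all genes, with 3 by edgeR and 2 by DESeq2. Rpl22, which binds RNA and is known for its role in T-cell development, had 47.2 and 51.5 normalized counts under HDM and 100.9 and 107.9 under PBS. Those cKO groups were well apart, with a log2 difference of -1.07 ± 0.37 (SE, adjusted p = 0.537, limma). In WT the order was not the same, at 78.9 and 87.7 under HDM against 51.3 and 88.2 under PBS, where the libraries overlapped. The interaction of Rpl22 was -1.37 ± 0.52 (SE, adjusted p = 0.563, limma), so a difference between genotypes was not shown. Rpl5, which carries 5S ribosomal RNA and binds Mdm2 when ribosome assembly stalls, had 50.1 and 83.9 under HDM and 123.6 and 143.5 under PBS in cKO (log2 difference -1.03 ± 0.36). Its WT libraries spanned 65.9 to 81.8 over both treatments. Rpl18 differed by -0.91 ± 0.41 in cKO. Rpl36 had the most negative difference in cKO (-1.31), and Rpl15 (0.58), Rps7 (0.50) and Rps20 (0.47) the most positive. Lower under HDM with no overlap were 24 genes (31.2%, background 16.7%), and higher were 3 (background 19.0%). Without cKO PBS replicate 1 the median was -0.11, and without replicate 2 it was -0.45. Over the 28 genes with a mean of at least 50 it was -0.33, with 3 positive and 25 negative, beside 0.01 over the 1803 genes of that filter.

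Under HDM, cKO against WT gave a median of -0.18 beside 0.02 over all genes, with 25 positive and 52 negative. Here too WT HDM replicate 2 set the direction: without it the median was 0.05, and without WT HDM replicate 1 it was -0.40. At an unadjusted p under 0.05 were Rps4x, Rpl13a and Rps3a1, 3 of 77 beside 9.6% of all genes, with 2 by edgeR and 2 by DESeq2. The X-linked small subunit gene Rps4x had 49.6 and 98.0 normalized counts in WT and 30.5 and 40.7 in cKO (log2 difference -0.97 ± 0.44). Rpl13a, whose protein can leave the ribosome to silence inflammatory messages in the GAIT complex, had 78.9 and 112.2 in WT and 58.0 and 44.8 in cKO (-0.87 ± 0.38). For Rps3a1 the order was the other way, with 39.1 and 28.4 in WT and 61.0 and 67.3 in cKO (0.92 ± 0.42). For none of these 3 genes did the genotypes overlap under HDM, and the adjusted p was 0.498, 0.478 and 0.506 (limma). Rps23 (-0.87) completed the negative extremes, and Rpl35a (1.99), Rps27l (1.23) and Rpl37 (1.00) were the positive ones. Without overlap, 21 genes were lower in cKO (background 21.9%) and 9 higher (background 21.1%).

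Under PBS, cKO against WT gave a median of 0.16 beside -0.09 over all genes, with 48 positive and 29 negative. Without cKO PBS replicate 1 it was 0.03, and without replicate 2 it was 0.40. Over the 28 genes with a mean of at least 50 it was 0.33, with 20 positive and 8 negative, beside 0.01 over all genes of that filter. Rpl35a alone had an unadjusted p under 0.05 (1 of 77, beside 6.96% of all genes), with 1 gene by edgeR and 1 by DESeq2. The largest positive differences after Rpl35a (2.04 ± 0.94) were those of Rpl38 (1.39) and Rpl36 (1.29). On the negative side stood Rpl15 (-0.97) and Rpl22l1 (-0.94). Higher in cKO with no overlap were 23 genes (29.9%, background 15.7%), and lower were 10 (background 19.1%).

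The interaction median was -0.26 beside 0.16 over all genes, with 21 positive and 56 negative. Over the 28 genes with a mean of at least 50 it was -0.43 (3 positive and 25 negative), beside 0.04. It is built from the same 8 libraries as the 4 comparisons above, which share groups with each other, and so is no separate evidence. Rpl17 (-1.50), Rpl24 (-1.39) and Rpl22 (-1.37) were most negative, and Rps27l (1.76), Rpl27 (1.24) and Rps3a1 (0.69) most positive. Rpl22 alone had an unadjusted p under 0.05 (1 of 77, beside 7.77% of all genes; 1 by edgeR and 1 by DESeq2). Scaling by library totals moved the median of all genes to -0.13 for HDM against PBS in WT and to 0.27 for the interaction. There the ribosomal protein median in WT turned to -0.02, while its distance from the median of all genes stayed at 0.11.

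**Figure D3:**
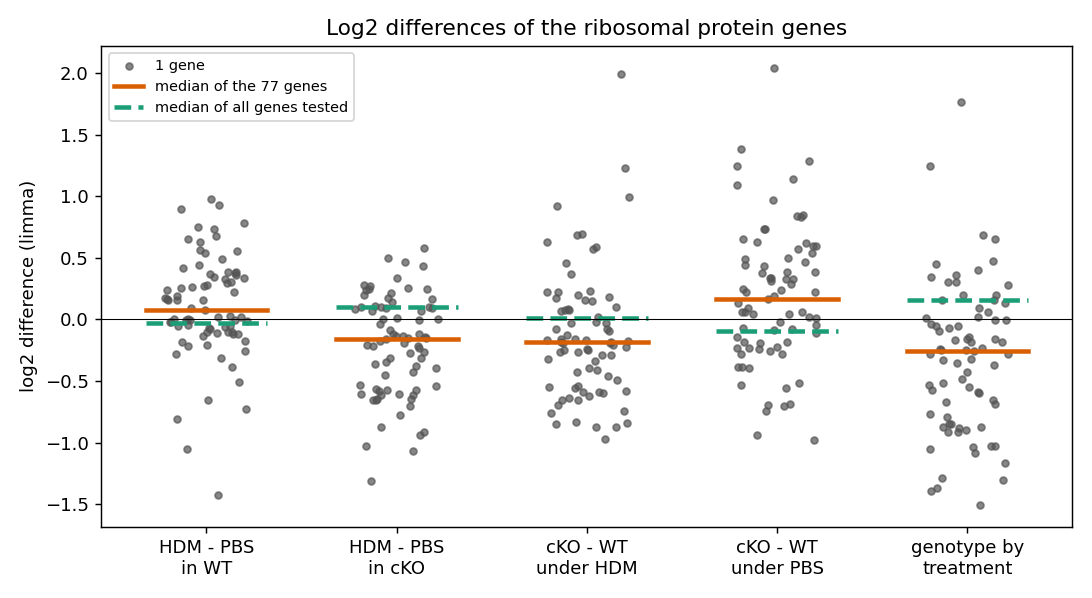
Log2 differences from limma (vertical axis) of the 77 tested ribosomal protein genes in the 4 comparisons of 2 groups and the interaction, 1 point a gene, with the median of the 77 genes (solid) and of all 7512 genes (dashed). The medians of the 77 genes lie between -0.26 and 0.16, and no point passed the adjusted threshold.

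Averaged over treatments, Rpl35a had the largest genotype difference of the family. Rpl35a, a large subunit protein also mutated in Diamond-Blackfan anaemia, lies at chr16:33056453-33060189 on the plus strand (GRCm38). It had 13.7 and 1.29 normalized counts in WT under HDM, 11.5 and 6.37 in WT under PBS, 18.9 and 25.8 in cKO under HDM and 55.3 and 26.7 in cKO under PBS. All 4 cKO libraries lay above all 4 WT libraries. The averaged log2 difference was 2.02 ± 0.66 (SE, adjusted p = 0.409, limma). The lowest of these values, in WT HDM 2, is 1 read. Leaving that library out lowers the difference under HDM from 1.99 to 0.65 and the averaged one to 1.35. Rpl37 also had an unadjusted p under 0.05 here, with 24.1 and 10.3 in WT under HDM, 26.8 and 10.9 in WT under PBS, 26.1 and 40.7 in cKO under HDM and 63.4 and 27.9 in cKO under PBS (1.12 ± 0.48, adjusted p = 0.569, limma). For Rpl37 the cKO and WT libraries overlapped. A separation of all 4 cKO from all 4 WT libraries like that of Rpl35a was seen in 1.78% of all genes tested. Lower in all 4 cKO libraries was Rps27a, which encodes ubiquitin fused to a small subunit protein (1 of 77, background 1.98%). Between HDM and PBS no gene of the family was without overlap over 4 libraries against 4, where 2.26% of all genes were higher and 1.66% lower. The unadjusted counts were 2 of 77 for genotype (8.41% of all genes) and 1 for treatment, Rpl5 (8.45% of all genes). By edgeR they were 2 and 1, and by DESeq2 2 and 0.

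**Figure D4:**
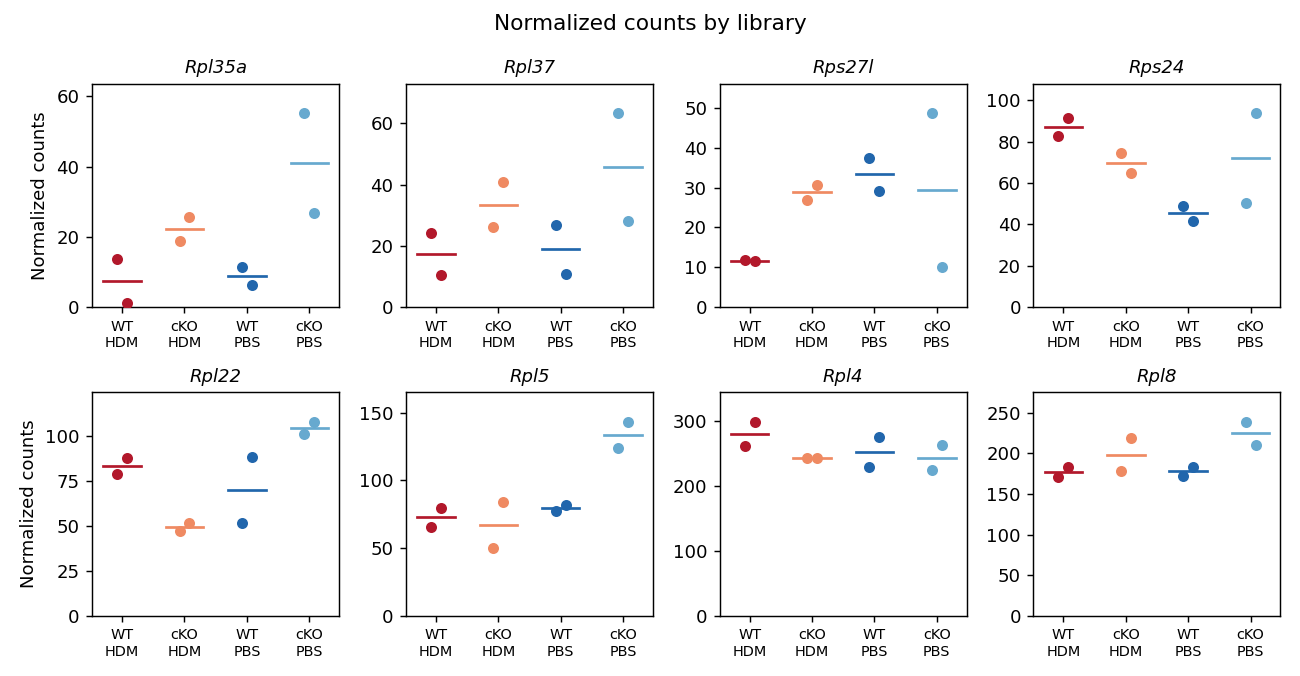
Normalized counts (vertical axes, each from 0) of 8 ribosomal protein genes in the 8 libraries, with points for libraries, lines for group means and colours for groups. Rpl35a is higher in all 4 cKO libraries, Rps27l is low in both WT HDM libraries and in 1 cKO PBS library, and Rpl4 stays between 224.5 and 299.1.

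By place in the ribosome, the same absence of passing genes held. The P stalk, which recruits elongation factors, is built from Rplp0, Rplp1, Rplp2 and Rpl12, and 0 of 4 passed in any comparison. Rplp0 had 153.3 and 257.8 normalized counts in WT under HDM, 187.5 and 142.8 in WT under PBS, 146.6 and 190.2 in cKO under HDM and 242.4 and 254.0 in cKO under PBS. Its cKO PBS libraries lay above the cKO HDM and WT PBS ones, with log2 differences of -0.57 ± 0.30 for HDM against PBS in cKO and 0.60 ± 0.30 for genotype under PBS. Rplp1 differed by -0.45 ± 0.34 and 0.38 ± 0.34 in those comparisons, Rplp2 by 0.14 ± 0.57 and 0.44 ± 0.57, and Rpl12 by -0.70 ± 0.45 and 0.38 ± 0.45. Rpl5 and Rpl11 form the 5S ribonucleoprotein. Unlike Rpl5, Rpl11 spanned only 16.5 to 23.5 over the 8 libraries.

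Of the 9 proteins at the rim of the exit tunnel, medians were 0.02 for HDM against PBS in WT and -0.00063 in cKO, and for cKO against WT -0.19 under HDM and -0.05 under PBS. The 9 around the messenger RNA channel and decoding centre had -0.05, -0.20, -0.25 and -0.19 in the same order. Among 10 members known for regulation, the median for HDM against PBS was 0.49 in WT (7 positive) and -0.25 in cKO (2 positive), and 0.08 averaged over genotypes (7 positive). For cKO against WT it was -0.56 under HDM (1 positive), 0.11 under PBS (5 positive) and -0.26 averaged over treatments (3 positive), and the interaction was -0.66 (2 positive). By limma 0 of 10 passed in each of the 7 comparisons, with 1 at an unadjusted p under 0.05 for cKO against WT under HDM and 0 in the others. Rps6, the substrate of the S6 kinases, had 30.7 and 25.8 in WT under HDM, 20.7 and 15.5 in WT under PBS, 14.5 and 15.8 in cKO under HDM and 14.6 and 34.3 in cKO under PBS. WT HDM was above cKO HDM (-0.85 ± 0.66). Rps3, a DNA repair and NF-kB partner, ranged from 98.8 to 165.3 and Rps14 from 98.7 to 157.8. Rps19, the gene most often mutated in Diamond-Blackfan anaemia, ranged from 21.04 to 45.7, and Rps27a from 9.76 to 25.8. Rpl38, needed for translation of Hox messages, ranged from 3.64 to 29.3, Rpl26, which binds p53 messages, from 20.3 to 49.1, Rps7 from 9.76 to 29.7 and Rpl10a from 19.1 to 55.3.

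The list of paralogs and their parents had 10 of 14 genes tested. Rps27l, a paralog of Rps27 that p53 can induce, lies at chr9:66946086-66949516 on the plus strand (GRCm38). It had 11.7 and 11.6 normalized counts in WT under HDM, 37.5 and 29.1 in WT under PBS, 26.9 and 30.7 in cKO under HDM and 48.8 and 10.2 in cKO under PBS. The WT HDM libraries lay below cKO HDM and WT PBS without overlap, while cKO PBS spanned the full range. Log2 differences were -1.43 ± 0.71 for HDM against PBS in WT (adjusted p = 0.587, limma) and 1.23 ± 0.71 for genotype under HDM (adjusted p = 0.622, limma). Rps27 itself had 13.0 and 9.02 in WT under HDM, 13.8 and 9.09 in WT under PBS, 13.8 and 19.9 in cKO under HDM and 29.3 and 12.7 in cKO under PBS, with a log2 difference of -0.04 ± 0.81 for HDM against PBS in WT. Per kilobase of coding sequence, Rps27l had a mean of 102.4 normalized counts and Rps27 59.8. Rpl22 had 199.7 per coding kilobase and its paralog Rpl22l1 31.9. The Rpl22 transcript used has 2051 bases, 384 of them coding, and that of Rpl22l1 has 525, 363 of them coding. Reads from untranslated ends can count in these values, so paralogs and parents cannot be ranked in expression by level per coding kilobase alone. Rpl7l1, a nucleolar relative of Rpl7, had 37.5 beside 77.6 for Rpl7, and was highest in WT HDM 2 (55.4 normalized counts, against 17.8 to 30.9 elsewhere). Rpl3, Rpl10, Rpl39 and Rps4x, whose paralogs had no reads or were not tested, had 51.4, 77.8, 103.9 and 73.0 per coding kilobase.

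Most ribosomal proteins are present as 1 copy in a ribosome, while the values of their genes per coding kilobase covered a wide range. Highest was Rpl41, at 923.6 normalized counts per kilobase. Its coding sequence has only 75 bases while reads can also come from the untranslated ends, so this value is uncertain. Untranslated length differs between genes, so the other levels per coding kilobase carry the same limit. Rplp1 (313.6), Rps14 (261.7), Rpl8 (252.3) and Rpl37a (231.3) followed. The lowest with reads were Rps13 (16.5), Rpl15 (21.03), Rpl35 (27.8), Rps10 (28.6) and Rps6 (28.7). Over the 8 libraries Rpl8 ranged from 170.9 to 239.1 normalized counts and Rplp1 from 76.95 to 157.8. In ratio these ranges are wider than the steps between Rplp1, Rps14 and Rpl8 per kilobase. They span 4 groups and are not the error of a mean. The order of those neighbours within each library was not tested, so it is uncertain.

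This range went with how distinctive the sequence was. Each coding sequence was cut into all its windows of 50 bases, and a window was unique if no transcript of another gene in GENCODE contained it. In 78 of 79 expressed genes at least 1 window was shared with an annotated pseudogene, with a median of 8 pseudogenes and a maximum of 121, for Rpl7a. The 30 genes with no unique window had a median of 62.7 normalized counts per coding kilobase, the 33 with some but under 30% had 75.4, and the 16 with at least 30% had 192. Across the 79 genes, Spearman's rho was 0.47 and Pearson's r 0.47 between level and percent unique. These values share the 8 libraries, the genes are not independent, and the 30% bound was chosen after the values were seen. The labels do not state how reads with several matches were counted, and the part of such reads in these levels was not tested. Nor was the part of untranslated length. Levels per kilobase of genes such as Rps13, Rpl15 and Rps6, with no unique window, are therefore uncertain, and so is each difference of a gene named here with few unique windows. Unique windows made up 17.8% for Rpl35a, 19.7% for Rps24, 0.0% for Rpl5, 69.0% for Rpl22, 51.7% for Rps27l and 79.7% for Rpl4.

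**Figure D5:**
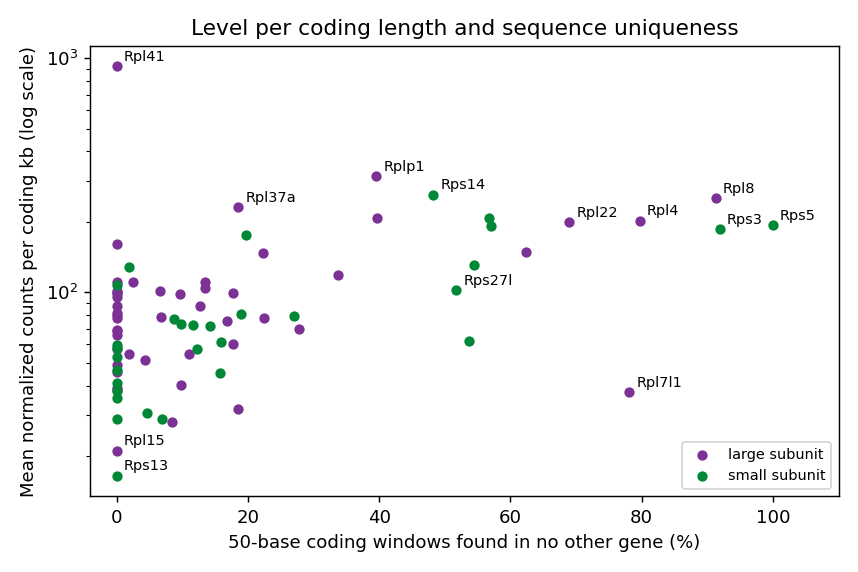
Mean normalized counts per coding kilobase (vertical axis, log scale) against the percent of 50-base coding windows found in no other gene (horizontal axis), 1 point for each of 79 expressed ribosomal protein genes, coloured by subunit. Genes with no unique window span 16.5 to 923.6, and those with at least 30% span 37.5 to 313.6.

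Among the 16 most distinctive genes the medians were -0.03 for HDM against PBS in WT, -0.15 in cKO, -0.12 for cKO against WT under HDM and -0.01 under PBS, beside 0.09, -0.21, -0.18 and 0.22 for the other 61. They were -0.13 and -0.02 for HDM against PBS averaged over genotypes, -0.03 and -0.01 for cKO against WT averaged over treatments, and -0.17 and -0.32 for the interaction. The 16 genes thus lay nearer 0 than the other 61 in 5 comparisons and farther from it in 2. Positive differences numbered 7, 5, 7 and 8 of 16 in the 4 comparisons of 2 groups, in the order above. The difference between the 2 sets was not tested. In addition, 20 of the family overlap another coding gene. In 29, small nucleolar RNA genes (or the related scaRNA genes) overlap the gene's span on either strand, among them Rpl4 with 5. Reads from overlapping genes cannot be assigned with certainty, since the labels do not state whether counting used strand.

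The family was steadier than most genes. The SD of log2 values over the 8 libraries had a median of 0.45 for the 77 genes, with a range of 0.14 to 1.40, and of 0.67 for all genes tested. The ribosomal protein genes also had more reads, a median of 329 over all libraries against 231 for all genes, and the part of this in the steadiness was not tested. A chi-square of replicate reads per degree of freedom, which is near 1 when only counting error is present, had a median of 2.96 for the family and 4.64 for all genes. Replicates thus differed by more than counting error. Rpl4, an exit tunnel protein, was steadiest, with 261.5 and 299.1 normalized counts in WT under HDM, 228.9 and 275.5 in WT under PBS, 243.1 and 242.5 in cKO under HDM and 224.5 and 262.9 in cKO under PBS. WT HDM lay above cKO HDM, the other groups of Rpl4 overlapped, and its log2 difference was 0.15 ± 0.24 for HDM against PBS in WT and -0.20 ± 0.24 for genotype under HDM. Rpl11 (SD 0.15), Rpl9 (0.16), Rpl8 (0.18) and Rpl7 (0.19) came next. The least steady were Rpl35a (1.40), Rpl37 (0.84), Rps27l (0.83), Rpl15 (0.81) and Rpl36 (0.78). Rpl15 had 22.8 and 15.5 in WT under HDM, 14.5 and 12.7 in WT under PBS, 9.43 and 10.8 in cKO under HDM and 14.6 and 2.54 in cKO under PBS. Rpl36 had 7.17 and 9.02 in WT under HDM, 10.7 and 16.4 in WT under PBS, 14.5 and 11.6 in cKO under HDM and 37.4 and 30.5 in cKO under PBS, so that both cKO PBS libraries lay above the other 6.

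Promoter sequence was read from the RefSeq table of the GRCm38.p6 build, which held 75 windows for 63 of the 84 genes. Each window runs from 250 bases before to 50 bases after an annotated start. A TOP-like tract, here a C followed by at least 7 pyrimidines on the coding strand within 20 bases of the start, stood in 32 of 75 windows (42.7%) and in 12.6% of all 32851 windows of the table. The ETS-type motif CCGGAAG stood in 34.7% of the family's windows and 8.86% of all, AAGATGG, a core of YY1 sites, in 12 of 75 windows and 6.34% of all, and the SP1 core GGGCGG in 58.7% and 35.7%. TATAAA was in 10.7% and 13.6%. These 4 motifs were searched on both strands over the whole window and can overlap each other. A match is a description of the letters and not a bound site. The windows below show the tract of genes described above: Rpl4 as the steadiest, Rps27 and its paralog Rps27l, Rps6 as the mTORC1 pathway's kinase substrate, Rpl7a with the most pseudogenes, and Rpl35, with the lowest mean of the genes tested. Each has 35 bases before and 25 from the start, 5′ to 3′ on the coding strand, with the tract in capitals.
Rpl4, chr9:64173352-64173411, plus strand: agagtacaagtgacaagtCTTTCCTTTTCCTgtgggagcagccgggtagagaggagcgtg
Rps27, chr3:90213624-90213683, minus strand: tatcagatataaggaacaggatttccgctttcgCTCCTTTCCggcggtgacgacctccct
Rps27l, chr9:66946051-66946110, plus strand: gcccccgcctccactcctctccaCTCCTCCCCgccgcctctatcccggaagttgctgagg
Rps6, chr4:86857343-86857402, minus strand: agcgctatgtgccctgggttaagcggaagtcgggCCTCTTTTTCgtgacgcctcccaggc
Rpl7a, chr2:26910772-26910831, plus strand: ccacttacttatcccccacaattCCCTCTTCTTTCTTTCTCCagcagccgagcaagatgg
Rpl35, chr2:39005107-39005166, minus strand: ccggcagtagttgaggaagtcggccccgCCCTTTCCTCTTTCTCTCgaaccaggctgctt

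The tract begins 1 base before the annotated start in Rps6 and 2 in Rps27, and 17 before it in Rpl4. In Rpl4 (13 bases) and Rps27l (9 bases, from 12 before the start) the tract ends before the annotated start. These tracts therefore lie outside a messenger RNA that begins at the RefSeq start used here. In GENCODE the Rpl4 gene starts earlier, at chr9:64173375, within the tract. Tested genes with and without a tract had medians of 83.7 (n = 30) and 79.6 (n = 28) normalized counts per coding kilobase. Their median log2 differences were 0.18 and 0.12 for HDM against PBS in WT and -0.15 and -0.16 in cKO. For cKO against WT they were -0.22 and -0.18 under HDM and 0.18 and 0.14 under PBS. The TOP motif acts on translation, which total RNA does not measure, and whether the matched tracts act as TOP motifs was not tested.

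Other genes of translation gave a like picture. Of 4 tested ribosomal proteins outside the symbol pattern (Rpsa, Fau, Rack1 and Rpl36al), 0 passed in any comparison, and Rack1, a signalling scaffold on the small subunit, ranged from 85.1 to 177.6 normalized counts. Among 20 tested elongation factors and other TOP genes, 1 passed, Vim, in HDM against PBS averaged over genotypes (log2 difference 3.83 ± 0.53, adjusted p = 0.00194, limma). Vim encodes vimentin, an intermediate filament of mesenchymal cells, and had 154.6 and 211.4 in WT under HDM, 21.4 and 11.8 in WT under PBS, 48.6 and 33.2 in cKO under HDM and 0.0 and 3.81 in cKO under PBS. Because 1 library is at 0, the fitted difference depends on the pseudocount. The fibroblast and smooth muscle markers were highest in the same WT HDM libraries, as given above, and their part in the Vim difference was not tested. In cKO they took 0.0253% and 0.0258% of reads under HDM and 0.00903% and 0.0288% under PBS. None passed among 28 tested initiation factors, 28 ribosome assembly factors, 18 genes of mTORC1 and TOP regulation, 15 of ribosome quality control and dormancy, or the 1 tested snoRNA host gene, Gas5. The 37 tested mitochondrial ribosomal protein genes, which build a separate ribosome, also had 0 passing, with medians of 0.12 for HDM against PBS in WT and 0.45 in cKO. Positive differences numbered 19 in WT and 23 in cKO, and the medians over all genes were -0.03 and 0.10. The mitochondrial median in cKO was thus positive where that of the cytosolic family was -0.16. Whether it rests on single libraries was not tested.

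The 5 tested genes of the Myc and p53 link, by which stalled ribosome assembly stabilises p53, had 0 passing in any comparison. Mycl, of the Myc family, had the list's smallest unadjusted p (limma) for HDM against PBS in WT, genotype under HDM and the interaction. It had 48.3 and 24.5 normalized counts in WT under HDM and 91.1 and 75.5 in WT under PBS. In cKO it had 85.6 and 81.4 under HDM and 45.5 and 81.3 under PBS. Mdm2, the ligase that Rpl5 and Rpl11 bind, had 37.8 and 61.9 normalized counts in WT under HDM, 94.9 and 114.6 in WT under PBS, 55.2 and 82.2 in cKO under HDM and 115.5 and 82.5 in cKO under PBS. The WT HDM libraries lay below the WT PBS ones, with a log2 difference of -1.09 ± 0.39 (SE, adjusted p = 0.357, limma). Cdkn1a, the p53 target that encodes p21, had 37.7 and 46.5 under HDM and 107.4 and 96.5 under PBS in cKO, a log2 difference of -1.26 ± 0.36 (SE, adjusted p = 0.42, limma). In WT it had 92.0 and 68.3 under HDM and 81.9 and 83.7 under PBS, where the groups overlapped.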

How the data were processed

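Normalized counts (signal values) for 25124 gene symbols were deposited by the authors, with HOMER, DESeq2 and mm10 named in the submitters' processing notes. The aligner, annotation, strand setting and treatment of reads with several matches are not stated there. Every value was a whole multiple of 1 read within 0.01, so whole reads were recovered for 100% of values. Genes with a mean of at least 10 were fitted as log2(value + 1) with limma 3.58.1 in R 4.3.3, with 1 mean per group, all 8 libraries, a variance trend and two-sided Benjamini-Hochberg adjusted p-values over 7512 genes. Alternative fits on those reads used DESeq2 1.42.0 and the quasi-likelihood test of edgeR 4.0.16. The limma fit was tested on simulated data. Coding lengths, positions and shared windows came from GENCODE M21 (GRCm38), which matched 84 of 84 symbols, and promoters from RefSeq.

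The members and lists were chosen with earlier results of these data known. Named genes were the 3 largest and 3 smallest differences per comparison, the 5 highest and lowest levels per coding kilobase, the 5 largest and smallest SDs, genes without reads, list members and Stat3. Genes with an unadjusted p under 0.05, and Rps27a, were named after their values were seen. In the lists outside the family, fewer genes were named than the rule allowed. Some results that the rule would name are not reported here.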

Additional observations from a re-analysis of the deposited data

How the results depend on the processing

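The 0 passing genes of each comparison held under every alternative run: 22 or 23 settings of pseudocount, filter, scaling, variance model, tool, replicate block and libraries left out. No pairing of the libraries by replicate number was seen over all genes, where same-numbered deviations correlated at -0.016 to 0.018. Over the tested ribosomal protein genes these correlations ran from -0.32 to 0.22. Such values cannot show that the libraries were unpaired. The replicate block left the count at 0 and the medians at 0.08, -0.16, -0.18, 0.16 and -0.26 for the 4 comparisons and the interaction. Leaving out 1 library gave medians of -0.08 to 0.31 for HDM against PBS in WT, -0.45 to -0.11 in cKO, -0.40 to 0.05 for genotype under HDM, 0.03 to 0.40 under PBS and -0.49 to -0.16 for the interaction. Those averaged over genotypes ran from -0.17 to 0.07 and over treatments from -0.11 to 0.11. The sign in WT and under HDM turned without WT HDM replicate 2. With a minimum mean of 50 (28 genes) the medians were 0.02 and -0.33 for HDM against PBS in WT and cKO, -0.18 and 0.33 for genotype under HDM and PBS, -0.43 for the interaction, and -0.18 and -0.01 for those averaged over genotypes and over treatments. The mean share of reads under HDM (WT, cKO) and then PBS (WT, cKO) was 1.10%, 1.02%, 1.09% and 1.23% with ribosomal proteins outside the symbol pattern added, 1.08%, 1.00%, 1.06% and 1.25% without the 10 genes with the most reads, and 1.11%, 1.01%, 1.08% and 1.24% of the reads of tested genes only, a denominator chosen after seeing the data. With 2 libraries a group, median intervals reached 1.12 log2 units either side, without adjustment for the number of genes tested. A difference under 2-fold was therefore not detectable in a gene of median error at this depth. Differences above 2-fold could also miss the adjusted threshold. Rpl22 did so for HDM against PBS in cKO (log2 difference -1.07, adjusted p = 0.537, limma). So did Rpl35a for cKO against WT averaged over treatments (2.02, adjusted p = 0.409, limma). The smallest difference that would pass was not computed.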
